A study of Mus musculus with 6 samples.

Results

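The 9 enzyme genes studied here belong to citrulline, arginine, proline and glutamine metabolism and were followed in intestinal RNA of mice on a high-fat diet. Cps1, Otc, Ass1, Asl, Oat, Aldh18a1, Pycr1, Arg2 and Prodh were taken by symbol (GENCODE M21), though with earlier results of these data known. Each of the 9 had a single row among the 47643 genes of the table. All 9 passed the filter on low counts, as did 12720 genes in total. The animals were male C57BL/6 mice, 7 to 8 weeks old, which all received tamoxifen by injection and a 60% high-fat diet (HFD) for 2 weeks. The genotype was Mycfl/fl in 3 libraries (control) and MycΔIE, ERT2 in the other 3 (Myc-deleted), that is, floxed Myc deleted by a tamoxifen-inducible recombinase in the intestinal epithelium. The labels name neither the promoter of the recombinase nor its presence in the controls, so loss of Myc and recombinase activity cannot be told apart in any difference given here. Nothing in the labels says how many mice each library holds, so p-values measure the spread between these libraries.

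The small intestine turns glutamine and glutamate into citrulline, which it exports and other tissues turn into arginine. In enterocyte mitochondria, glutamate becomes pyrroline-5-carboxylate (P5C), P5C becomes ornithine, and ornithine joins carbamoyl phosphate to give citrulline. P5C is also the meeting point with proline, which is made from it and broken down to it, and with arginine, whose breakdown by arginase gives ornithine.

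In the Myc-deleted libraries the mRNAs of 3 mitochondrial enzymes around ornithine and P5C were lower. Levels are given as CPM, counts scaled to a common library size. Arg2, the mitochondrial arginase, fell 2.04-fold, Prodh, which oxidises proline to P5C, fell 1.62-fold, and Oat, which interconverts ornithine and P5C, fell 1.40-fold. Aldh4a1, which oxidises P5C to glutamate and is not among the 9, rose 2.40-fold. Neither Cps1 nor Otc, the enzymes that commit ammonia and ornithine to citrulline, passed the test. By edgeR's quasi-likelihood test, 3 of the 9 genes were called lower, where 3.73% of all tested genes were called lower. None was called higher, where 4.22% of tested genes were. At an unadjusted edgeR p under 0.05, 2 of the 9 were higher (Cps1 and Aldh18a1) and 5 lower (Otc, Asl and the 3 called). The share of all tested genes at that unadjusted cut is not given here. DESeq2 and limma voom also called 0 of the 9 higher. In 6 of the 9 the Myc-deleted values were all lower than the lowest control (13.7% of tested genes did so), and in 1, Aldh18a1, every one lay above (14.0%). The median log2 fold change was -0.28 over the 9 genes and -0.00212 over all tested genes.

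**Figure D1:**
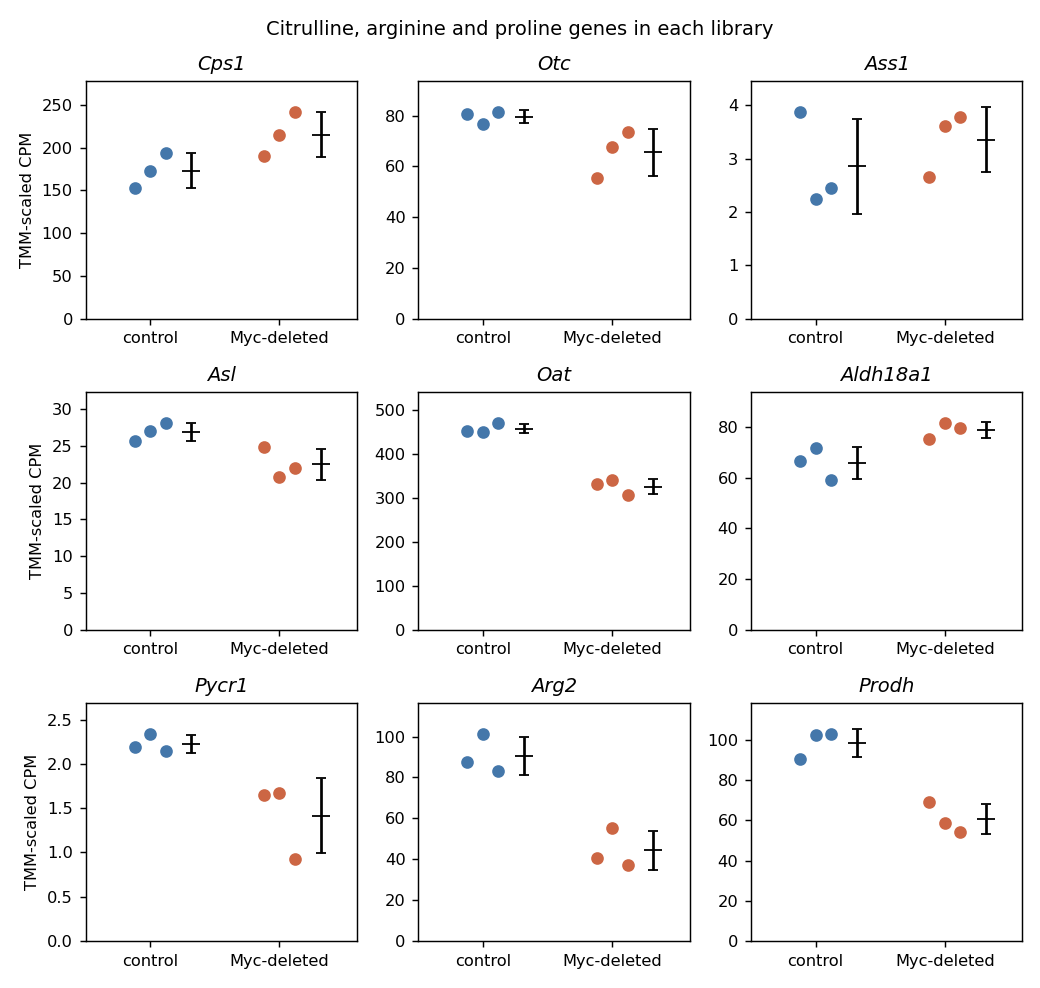
TMM-scaled CPM (vertical axis from 0) of the 9 genes in the 3 control (blue) and 3 Myc-deleted (orange) libraries, with the mean and SD in black. The groups do not overlap for Arg2, Prodh, Oat, Otc, Asl and Pycr1 (Myc-deleted lower) and Aldh18a1 (Myc-deleted higher), and the Cps1 and Ass1 points overlap.

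Promoter sequence was matched from RefSeq (GRCm38.p6) for 6 of the 9 genes, Otc, Ass1, Oat, Aldh18a1, Pycr1 and Prodh. The windows run from 250 bases before to 50 after each start and were searched on both strands for 3 motifs that do not overlap each other here: CACGTG, the E-box that Myc binds with its partner Max, TGATGNAA, the amino acid response element of Atf4, and CAAAGTCCA, a binding motif of Hnf4. CACGTG stood in 2 of the 6 windows, those of Aldh18a1 (59 bases before the start) and Ass1 (36 bases before it), and in 7.15% of all 32851 windows. TGATGNAA stood in 1, that of Pycr1 (103 bases before the start), against 3.97% of all windows, and CAAAGTCCA in 0 of 6, against 0.475%. The windows of Oat and Prodh, both of which fell, held none of these letters, and neither did that of Otc, which did not pass. Arg2, which also fell, had no matched window.

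The bases before the start are shown for the fallers Oat (chr7:132576399-132576648) and Prodh (chr16:18089293-18089440), and, as examples with a match, for Aldh18a1 (chr19:40588464-40588713) and Pycr1 (chr11:120643770-120643998). All 4 lie on the minus strand, are written 5′ to 3′ in lower case with the matched motif in capitals, and leave out bases that GENCODE M21 places in an exon of the gene. The Ass1 match is not shown, as GENCODE exon bases cover it. The Prodh stretch lies inside the span that GENCODE gives the gene.
Oat: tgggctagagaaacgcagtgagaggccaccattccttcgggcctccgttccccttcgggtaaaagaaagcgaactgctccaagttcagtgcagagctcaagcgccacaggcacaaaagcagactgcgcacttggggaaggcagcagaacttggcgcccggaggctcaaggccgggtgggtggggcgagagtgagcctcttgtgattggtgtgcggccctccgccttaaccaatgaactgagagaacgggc
Prodh: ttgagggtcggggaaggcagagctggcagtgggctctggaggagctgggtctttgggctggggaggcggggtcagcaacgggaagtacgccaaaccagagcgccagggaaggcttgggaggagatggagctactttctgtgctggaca
Aldh18a1: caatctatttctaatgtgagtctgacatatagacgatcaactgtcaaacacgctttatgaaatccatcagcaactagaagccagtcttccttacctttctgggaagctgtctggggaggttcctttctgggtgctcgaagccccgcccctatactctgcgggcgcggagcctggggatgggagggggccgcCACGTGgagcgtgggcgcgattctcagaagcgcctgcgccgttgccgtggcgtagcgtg
Pycr1: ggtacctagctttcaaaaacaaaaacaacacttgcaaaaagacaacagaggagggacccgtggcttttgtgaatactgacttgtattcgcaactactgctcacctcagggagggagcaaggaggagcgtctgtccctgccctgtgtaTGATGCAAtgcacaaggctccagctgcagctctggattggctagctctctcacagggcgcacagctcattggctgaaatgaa

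All Myc-deleted libraries were lower in Myc than the controls, 1 of them by a narrow margin. Its level was 5.86, 6.05 and 6.03 CPM across the controls (libraries 1 to 3, here and for all genes) against 3.29, 4.36 and 5.81 CPM after deletion. Its log2 fold change of -0.41 (SE 0.22) had an edgeR adjusted p of 0.318, and a two-sided exact permutation test gave p = 0.1, the smallest possible with 3 against 3. The library labelled Myc-deleted 3 was thus close to the controls in Myc. Without it the log2 fold changes were -0.92 for Arg2 (edgeR adjusted p = 0.00628), -0.63 for Prodh (0.00887) and -0.45 for Oat (0.0122).

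Library totals ran from 9956938 to 11328693 expected counts. Liver is the tissue written in the extraction protocol, while intestine, with no segment, is given elsewhere, which matters for urea cycle genes that hepatocytes express. Fabp6, an ileal bile acid binding protein, stood at 9567 to 12490 CPM, and Anpep, a brush border peptidase, at 13344 to 16856 CPM. Of 15 hepatocyte markers, 9 had at most 10 counts in every library. Alb was at 1.89 to 3.20 CPM in the controls and 0.0929 to 0.915 CPM in the Myc-deleted libraries. The summed hepatocyte list ran from 35.7 to 53.2 CPM in the controls and 12.3 to 25.1 CPM in the Myc-deleted libraries. Tat (4.83 to 40.7 CPM) made up most of it except in Myc-deleted library 2 (4.83 of 12.3 CPM). Of the list's 6 tested genes 3 were called lower, Alb, Tat and Hpd (edgeR adjusted p = 0.0326, 0.0276 and 0.0473). Over the 6 the log2 fold change was negative in 3 and positive in 3. Alb kept its call only without Myc-deleted library 1 among the leave-one-out runs (0.0514 to 0.130 in the others) and Hpd in none (0.0546 to 0.189), and Tat lost it without control library 2 (0.0892) or 3 (0.0926). DESeq2 called 1 of the 3. The part of this list in the falls of Arg2, Prodh and Oat was not tested. Control library 2 held the most smooth muscle and stromal RNA (158 CPM over 12 markers, against 74.0 to 101 CPM in the others). Myh11, a smooth muscle myosin, was at 25.8 CPM there and 2.23 to 5.01 CPM elsewhere, while the most abundant genes of the list on average, Col3a1 (19.6) and Col1a2 (16.7), were within the range of the other libraries. The list's median log2 fold change was -0.91. Of its 11 tested genes edgeR called 0, with 3 lower at an unadjusted p under 0.05, limma voom 0 and DESeq2 1 lower. Without control library 2 the log2 fold changes were -0.95 for Arg2 (edgeR adjusted p = 0.0161), -0.68 for Prodh (0.0220) and -0.51 for Oat (0.0214). The summed level of 15 enterocyte markers was 47709 to 52988 CPM in the controls and 54033 to 60226 CPM in the Myc-deleted libraries, and its part in these results was not tested. Of the 15, 1 was called, the fatty acid binding protein gene Fabp2, which rose (0.90 ± 0.18, edgeR adjusted p = 0.0132; 0.0693 without control library 2). Fabp2 was at 4153 to 5315 CPM in the controls and 6795 to 11013 CPM in the Myc-deleted libraries. Without Fabp2 the enterocyte sums overlapped between the groups. The log2 fold change was positive in 11 of the 15 and negative in 4. At an unadjusted edgeR p under 0.05, 5 were higher and 1 lower. Summed markers overlapped between the groups for lymphocytes and plasma cells (321 to 349 and 324 to 371 CPM, led by Jchain and Cd79a), for crypt cells (237 to 273 and 209 to 266 CPM, led by Axin2 and Mki67) and for Paneth and goblet cells (22206 to 23172 and 22416 to 22904 CPM, led by Fcgbp and Zg16). Of these lists 1 gene was called, Sox9 of the crypt list (0.86 ± 0.17, edgeR adjusted p = 0.0141). Most of the 10 tested crypt genes went the other way, 6 with a negative and 4 with a positive log2 fold change. At an unadjusted edgeR p under 0.05, 3 crypt genes were lower, and 1 was higher. Mki67 was lower without passing (-0.39 ± 0.12, edgeR adjusted p = 0.0826). Limma voom called 1 crypt gene higher and 1 lower. The 11 Paneth and goblet genes had a median log2 fold change of 0.26, with 7 positive and 4 negative. At an unadjusted edgeR p under 0.05, 4 of these were higher and 0 lower. Without Myc-deleted library 1, 3 were called higher and 0 lower. For none of the marker lists is the share of all tested genes at the unadjusted cut given. Of 10 pancreatic acinar markers, 5 had no count in any library and 1 was tested, the elastase gene Cela1, which rose (1.10 ± 0.18, edgeR adjusted p = 0.00550). The list summed to 3.47 to 3.89 CPM in the controls and 6.86 to 8.08 CPM in the Myc-deleted libraries. Nearly all of that was Cela1 (3.28 to 3.47 and 6.68 to 7.89 CPM), as 9 of the 10 markers had at most 10 counts in every library. In bulk RNA, fewer cells of a type and less RNA per cell cannot be told apart.

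The first step of the urea cycle is carbamoyl phosphate synthesis from ammonia by Cps1 (chromosome 1, 67123026 to 67231259, GRCm38). It stood at 153, 173 and 194 CPM in the controls and at 189.9, 215 and 242 CPM in the Myc-deleted libraries. Control library 3 lay above Myc-deleted library 1, so the groups overlapped. The difference did not pass (log2 fold change 0.31 ± 0.11, edgeR adjusted p = 0.128). Otc (chromosome X, 10252305 to 10321024) joins carbamoyl phosphate to ornithine. Its level was 80.5, 76.8 and 81.4 CPM in the controls and 55.4, 67.7 and 73.5 CPM in the Myc-deleted libraries. All 3 Myc-deleted values were lower than the lowest control, but the difference did not pass (-0.28 ± 0.10, edgeR adjusted p = 0.145). Nags, which makes the N-acetylglutamate that Cps1 needs for activity, was at 53.9, 66.1 and 66.7 CPM in the controls and 49.4, 48.1 and 46.9 CPM in the Myc-deleted libraries. It fell (-0.37 ± 0.10, edgeR adjusted p = 0.0450), a call lost without control library 2 or 3 or any one Myc-deleted library (adjusted p = 0.0709 to 0.163). Slc25a15, the mitochondrial carrier that exchanges ornithine and citrulline, did not pass (0.12 ± 0.12, edgeR adjusted p = 0.594), with 200 to 280 CPM in the controls and 242 to 266 CPM in the Myc-deleted libraries.

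Ass1 and Asl turn citrulline into arginine, a pair of steps that the adult gut runs at a low rate. Ass1 (chromosome 2, 31470207 to 31520672) had 24 to 39 counts in the controls and 29 to 41 in the Myc-deleted libraries. That is 3.88, 2.25 and 2.45 CPM against 2.65, 3.62 and 3.78 CPM. The groups overlapped and no difference was detectable at this depth (0.23 ± 0.29, edgeR adjusted p = 0.686). Asl (chromosome 5, 130011258 to 130029247) stood at 25.6, 27.0 and 28.1 CPM in the controls and at 24.8, 20.7 and 22.0 CPM in the Myc-deleted libraries. The groups did not overlap but came close, and the difference did not pass (-0.26 ± 0.10, edgeR adjusted p = 0.160).

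Oat, ornithine aminotransferase (ENSMUSG00000030934.8, chromosome 7, 132557478 to 132576398), is the enzyme through which ornithine is made from P5C in the gut. It was at 453, 452 and 471 CPM in the controls and at 331, 341 and 307 CPM in the Myc-deleted libraries. All controls lay close together and above the highest Myc-deleted library. The log2 fold change was -0.49 ± 0.07 (edgeR adjusted p = 0.00383), and -0.53 to -0.45 over the 6 runs that each left out 1 library (adjusted p = 0.00784 to 0.0214).

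Aldh18a1, P5C synthase (chromosome 19, 40550257 to 40588463), makes P5C from glutamate. Its level was 66.7, 71.6 and 58.9 CPM in the controls and 75.1, 81.4 and 79.4 CPM in the Myc-deleted libraries. All Myc-deleted libraries were higher than all controls, but the difference did not pass (0.26 ± 0.09, edgeR adjusted p = 0.115). Pycr1 (chromosome 11, 120635712 to 120643769) reduces P5C to proline in mitochondria and had only 21 to 27 counts in the controls and 10 to 18 in the Myc-deleted libraries. In CPM that is 2.19, 2.33 and 2.15 against 1.65, 1.67 and 0.923. The Myc-deleted libraries were all lower, and the difference did not pass (-0.65 ± 0.32, edgeR adjusted p = 0.270). Pycrl, a cytosolic P5C reductase also named Pycr3, was more abundant in CPM, at 32.7 to 35.4 CPM over all 6 libraries, and did not pass (edgeR adjusted p = 0.670).

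Prodh, proline dehydrogenase (ENSMUSG00000003526.11, chromosome 16, 18060357 to 18090203), hands electrons from proline to the respiratory chain and is also known as a p53 target. It stood at 90.4, 103 and 103 CPM in the controls and at 69.2, 58.7 and 54.4 CPM in the Myc-deleted libraries. Every Myc-deleted library lay below the lowest control. The log2 fold change was -0.70 ± 0.10 (edgeR adjusted p = 0.00334), and -0.80 to -0.63 over the leave-one-out runs. Aldh4a1, P5C dehydrogenase, acts directly after Prodh in proline breakdown. It went the other way, from 54.4, 49.0 and 75.4 CPM to 124, 161 and 144 CPM. Its log2 fold change was 1.26 ± 0.16 (edgeR adjusted p = 0.00161), and 1.13 to 1.47 over the leave-one-out runs.

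Arg2 (ENSMUSG00000021125.6, chromosome 12, 79130777 to 79156301) splits arginine into urea and ornithine in mitochondria, and had the lowest p of the 9 genes. It was at 87.4, 101 and 82.9 CPM in the controls and at 40.7, 55.1 and 37.3 CPM in the Myc-deleted libraries. The groups did not overlap. The log2 fold change was -1.03 ± 0.14 (edgeR adjusted p = 0.00247), and -1.22 to -0.92 over the leave-one-out runs. The gene shares 285 exon bases with Vti1b on the other strand. The libraries were stranded, per the labels, but whether counting used the strand is not given in the sources used here. Vti1b was at 64.5 to 74.8 CPM in the controls and 77.8 to 85.5 CPM in the Myc-deleted libraries (0.23 ± 0.08, edgeR adjusted p = 0.133) and was picked for naming once its values were known. Macrophages also express Arg2. Of 9 tested macrophage and myeloid markers 1, the integrin gene Itgam, was called lower (-1.55 ± 0.15, edgeR adjusted p = 0.000693) and 0 higher. The log2 fold change was positive in 4 of the 9 markers and negative in 5, with a median of -0.07. The summed level of the 11 markers was 138 to 155 CPM in the controls and 124 to 127 CPM in the Myc-deleted libraries, led by Lyz2 and Csf1r and with S100a8 and S100a9 at or near 0, and its part in the fall of Arg2 was not tested. Arg1, the liver arginase, was too low to test, with 1 to 9 counts per library. Nos2, the inducible nitric oxide synthase and another consumer of arginine, was at 287, 286 and 444 CPM in the controls and 312, 192 and 285 CPM in the Myc-deleted libraries. The groups overlapped (-0.37 ± 0.20, edgeR adjusted p = 0.332). Nos2 is named here after its values were seen.

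**Figure D2:**
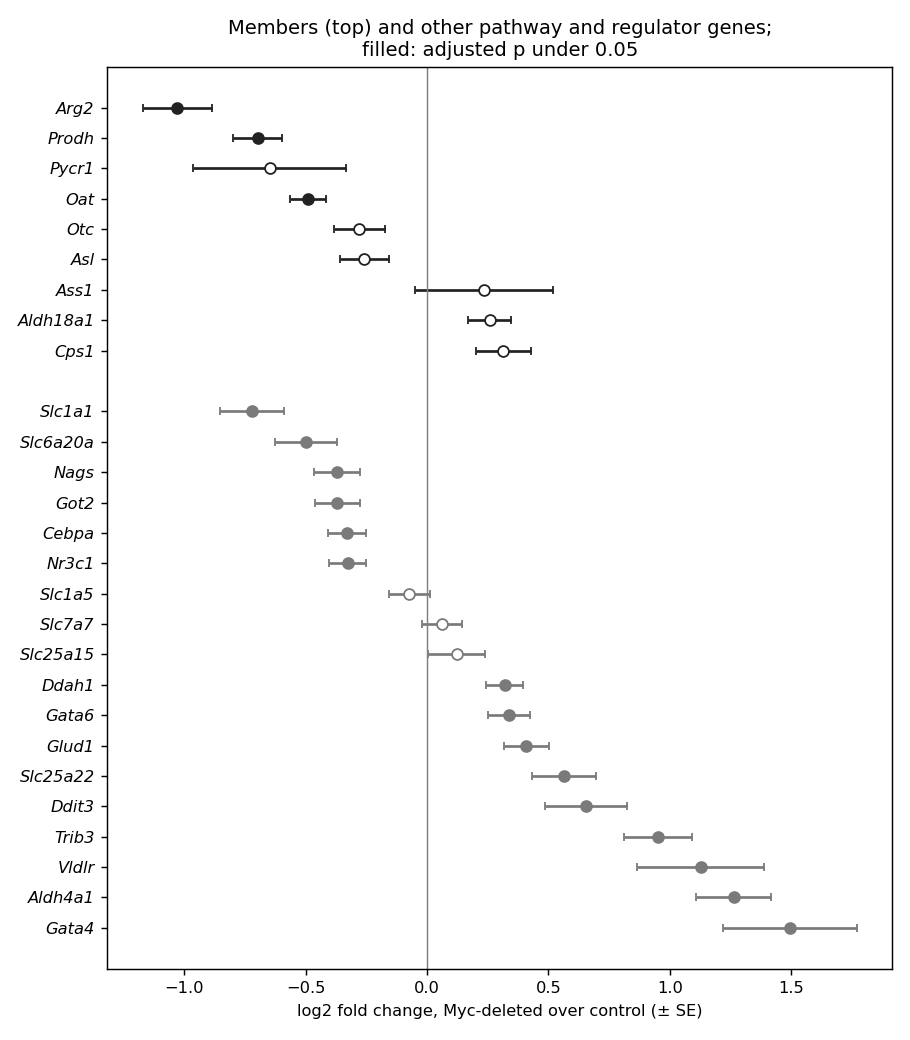
Log2 fold change of Myc-deleted over control (horizontal axis, with SE) for the 9 genes (black, top) and for other named genes of the pathway and its regulators (grey), filled where the edgeR adjusted p was under 0.05. Arg2, Prodh and Oat are the filled points among the 9, all below 0, and Aldh4a1 stands at 1.26.

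Across genes, levels were compared as CPM per kb of exon. In the controls Oat was highest (194 ± 4.50 CPM per kb; SD, n = 3), followed by Arg2 (63.4 ± 6.65), Cps1 (31.2 ± 3.76), Otc (18.8 ± 0.581) and Aldh18a1 (16.1 ± 1.56). Prodh (12.7 ± 0.911), Asl (5.57 ± 0.254), Ass1 (1.18 ± 0.367) and Pycr1 (0.565 ± 0.0252) came next. No neighbours in this order overlapped between control libraries. In the Myc-deleted libraries Oat was again highest (138 ± 7.26), with Cps1 (38.8 ± 4.68) now ahead of Arg2 (31.1 ± 6.61), although these overlapped between libraries. Aldh18a1 (19.3 ± 0.794) stood ahead of Otc (15.5 ± 2.18) without overlap. By the longest protein-coding transcript instead of all exons, their means were 22.3 and 21.9 CPM per kb, and their libraries overlapped. The place of Prodh depends on its length, since its annotated exons sum to 7797 bases and its longest protein-coding transcript has 2386. Per kb of the longest protein-coding transcript it ranked 3 of 9 in the controls, not 6.

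**Figure D3:**
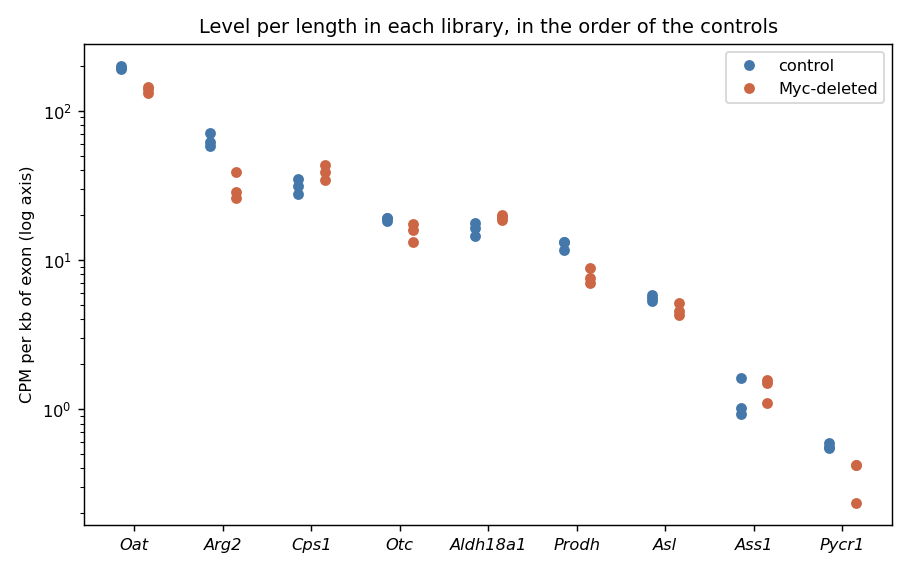
CPM per kb of exon (log axis) of the 9 genes in each control (blue) and Myc-deleted (orange) library, in the order of the control means. Oat is highest in both groups, and Arg2 lies above Cps1 in the controls (63.4 against 31.2 on average) and overlaps it in the Myc-deleted libraries (31.1 against 38.8).

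Ratios of 2 genes within a library do not depend on how libraries are scaled. The 6 pairs at linked steps were chosen after the values were seen, and an exact two-sided permutation test of the log2 ratio can give no p below 0.1 with these 6 libraries. Cps1 over Otc in CPM was 1.90, 2.25 and 2.39 in the controls and 3.42, 3.17 and 3.29 in the Myc-deleted libraries. This ratio was 1.52-fold higher without overlap, though neither gene passed alone. Cps1 over Nags was 2.83, 2.61 and 2.91 in the controls and 3.84, 4.46 and 5.16 in the Myc-deleted libraries. Aldh18a1 over Oat went from 0.147, 0.158 and 0.125 to 0.227, 0.239 and 0.258. This ratio was 1.69-fold higher, without overlap. Aldh4a1 over Prodh went from 0.601, 0.478 and 0.733 to 1.79, 2.74 and 2.64, a 3.95-fold change. Each of these 4 ratios gave the smallest possible p of 0.1 in the exact permutation test (0.15 after Benjamini-Hochberg adjustment over the 6). The other 2 overlapped. Arg2 over Nos2 was 0.304, 0.353 and 0.187 in the controls and 0.131, 0.287 and 0.131 in the Myc-deleted libraries (exact permutation p = 0.2, adjusted 0.24). Prodh over Pycr1 averaged 44.4 ± 3.32 and 45.4 ± 12.3 (SD, n = 3; exact permutation p = 1).

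**Figure D4:**
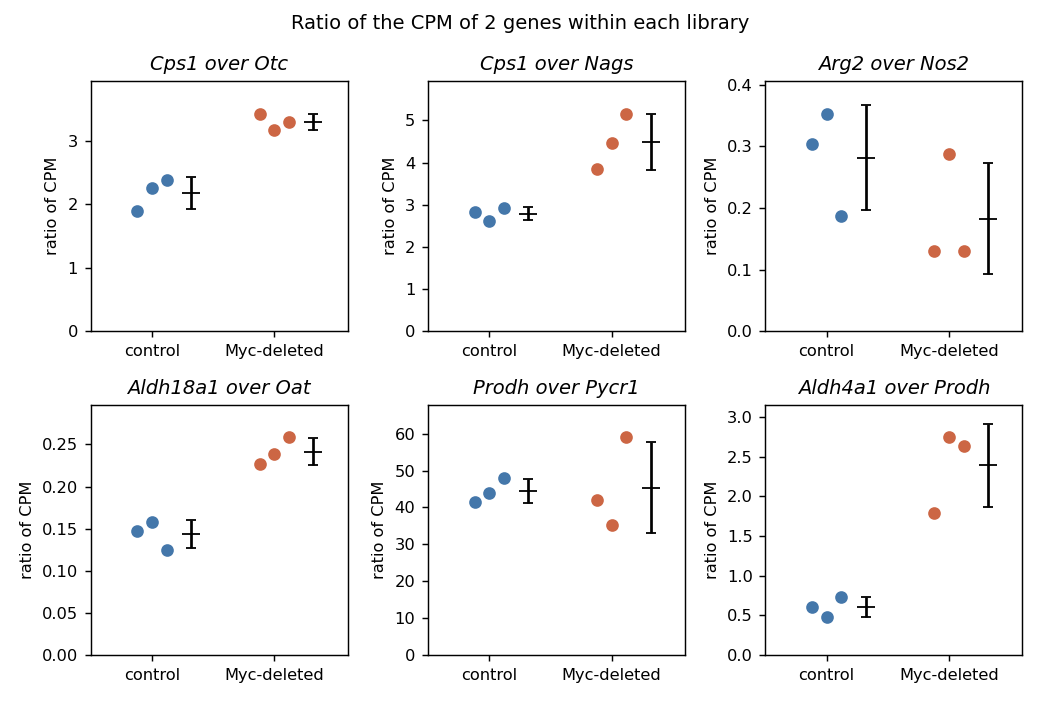
Ratio of the CPM of 2 genes within each control (blue) and Myc-deleted (orange) library, with mean and SD in black and the vertical axis from 0. The groups are apart for Cps1 over Otc, Cps1 over Nags, Aldh18a1 over Oat and Aldh4a1 over Prodh.

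Of 17 other enzymes of glutamine and glutamate, 15 were tested, with 1 called higher and 1 lower (median log2 fold change -0.03). Glud1, glutamate dehydrogenase, which releases ammonia from glutamate in mitochondria, rose from 181, 204 and 205 CPM to 248, 294 and 242 CPM. Its log2 fold change was 0.41 ± 0.09 (edgeR adjusted p = 0.0269), a call lost without any one control or Myc-deleted library 2 (adjusted p = 0.0606 to 0.106). Got2, the mitochondrial aspartate aminotransferase, fell from 38.2, 39.9 and 45.6 CPM to 32.8, 32.6 and 30.2 CPM. This difference (-0.37 ± 0.09, edgeR adjusted p = 0.0392) passed in none of the 6 leave-one-out runs (adjusted p = 0.0537 to 0.121) and not with DESeq2 (0.0677).

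Of 10 other proline enzymes in the table, 7 were tested, and 1 (Aldh4a1) was called higher and 0 lower. Of 15 other enzymes of arginine, creatine and nitric oxide, 8 were tested, with 1 higher, 1 lower (Nags) and a median of -0.37. The riser was Ddah1, which breaks down methylated arginines that inhibit nitric oxide synthases. It went from 88.0, 82.0 and 84.0 CPM to 102, 102 and 113 CPM (0.32 ± 0.08, edgeR adjusted p = 0.0306). The call was lost without any one control or Myc-deleted library 2 or 3 (adjusted p = 0.0691 to 0.149).

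Of 18 tested carriers of these amino acids 1 was called higher and 2 lower, and 15 did not pass (median -0.01). Slc25a22, a mitochondrial glutamate carrier, rose from 407, 294 and 354 CPM to 603, 468 and 489 CPM (0.56 ± 0.13, edgeR adjusted p = 0.0290). The call was lost when control library 2, control library 3 or Myc-deleted library 1 was left out (adjusted p = 0.0692 to 0.120). Slc1a1, the glutamate and aspartate transporter of the brush border, fell from 195, 217 and 266 CPM to 156, 138 and 117 CPM. Its log2 fold change was -0.72 ± 0.13 (edgeR adjusted p = 0.00972), and the call held in each leave-one-out run. Slc6a20a, a proline transporter, fell from 249.0, 266 and 242 CPM to 206, 189.5 and 139.6 CPM (-0.50 ± 0.13, edgeR adjusted p = 0.0424). That call was lost without any one control or Myc-deleted library 2 (adjusted p = 0.0770 to 0.151). Slc1a5, a glutamine transporter, and Slc7a7, which exports arginine at the basolateral side, did not pass (edgeR adjusted p = 0.675 and 0.727). Slc7a7 was at 334 to 402 CPM in the controls and 374 to 390.4 CPM in the Myc-deleted libraries.

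Pycr1 and Aldh18a1 are known targets of Atf4, the transcription factor of the response to amino acid shortage. Of 15 tested genes of that response 3 were called higher and 0 lower, with a median of 0.07. Trib3, a pseudokinase, rose from 12.4, 9.60 and 13.1 CPM to 21.9, 25.2 and 20.7 CPM (0.95 ± 0.14, edgeR adjusted p = 0.00334), a call kept in each leave-one-out run. Ddit3, the transcription factor CHOP, rose (0.66 ± 0.17, edgeR adjusted p = 0.0450). It kept its call without Myc-deleted library 1, and in no other leave-one-out run (adjusted p = 0.0568 to 0.154), nor with upper-quartile scaling (0.0562) or limma voom (0.0575). Vldlr, a lipoprotein receptor, rose from 1.49 to 1.56 CPM to 2.79 to 3.66 CPM (1.13 ± 0.26, edgeR adjusted p = 0.0281). It kept its call without Myc-deleted library 2, and in no other leave-one-out run (adjusted p = 0.0777 to 0.1001), nor with DESeq2 (0.0776). Atf4 mRNA itself was at 184 to 224 CPM in the controls and 196 to 227 CPM in the Myc-deleted libraries. Asns, asparagine synthetase and a classical Atf4 target, did not pass (-0.26 ± 0.21, edgeR adjusted p = 0.533).

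Among 14 tested transcription factors of enterocytes and hepatocytes 2 were called higher and 2 lower, with a median of 0.01. Cebpa, which drives urea cycle genes in liver, fell from 50.4, 50.8 and 49.0 CPM to 37.9, 41.9 and 39.7 CPM (-0.33 ± 0.08, edgeR adjusted p = 0.0299). The call was lost in each leave-one-out run (adjusted p = 0.0514 to 0.106) and with DESeq2 (0.0632). Nr3c1, the glucocorticoid receptor, fell from 128, 121 and 134 CPM to 107, 101 and 97.4 CPM (-0.33 ± 0.08, edgeR adjusted p = 0.0272). It kept its call without Myc-deleted library 1 and lost it in the other leave-one-out runs (adjusted p = 0.0606 to 0.0949). Gata4, a factor of the proximal small intestine, rose from 3.18, 5.36 and 3.98 CPM to 7.59, 14.5 and 13.6 CPM (edgeR adjusted p = 0.00973, passed in each leave-one-out run). Its relative Gata6 rose as well (0.34 ± 0.09, edgeR adjusted p = 0.0425). That call held without control library 3 and in no other leave-one-out run (adjusted p = 0.0546 to 0.188), nor with upper-quartile scaling (0.0642) or DESeq2 (0.0568). Hnf4a stood at 1130 to 1314 CPM in the controls and 1159 to 1262 CPM in the Myc-deleted libraries and did not pass (edgeR adjusted p = 0.841).

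**Figure D5:**
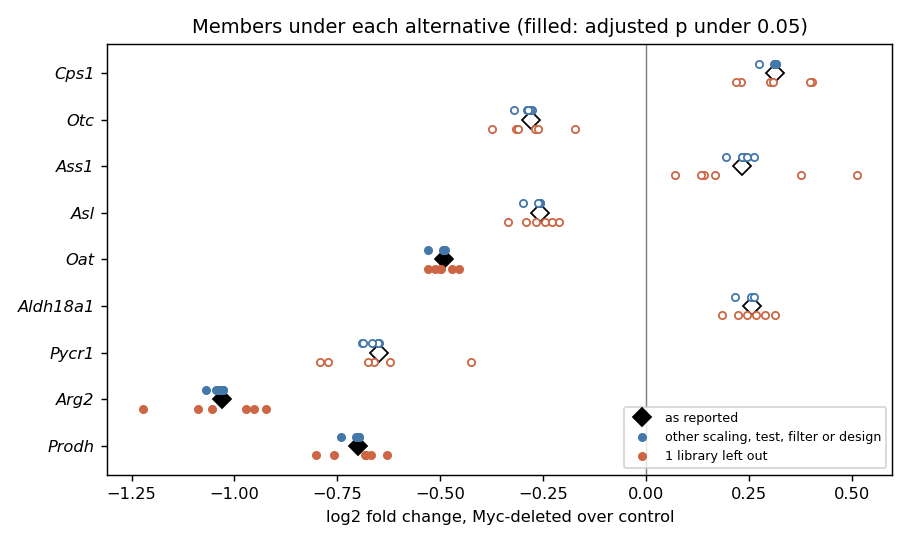
Log2 fold change of each of the 9 genes (horizontal axis) as reported (black diamond), with another scaling, test, filter or design (blue) and with 1 library left out (orange), filled where the adjusted p was under 0.05. Every point of Arg2, Prodh and Oat is filled and below 0, and no point of the 9 genes crosses 0.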

How the data were processed

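Messenger RNA of 6 intestinal libraries (3 control, 3 Myc-deleted) was sequenced from stranded preparations, per the labels. The deposited values are expected counts per gene, unscaled between libraries. The submitters' processing notes name cutadapt, STAR, Picard, RSEM and the build mm10, without versions. The annotation release is not given in the sources used here. By Ensembl identifier, 99.1% of 47643 genes matched GENCODE M21 (GRCm38), which gave symbols, coordinates and exon lengths.

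Expected counts were rounded and analysed in R 4.3.3. The packages were DESeq2 1.42.0, limma 3.58.1 and edgeR 4.0.16. Low genes were removed by filterByExpr (minimum count 10), and the rest scaled by TMM and tested by the edgeR quasi-likelihood F-test across all genes, with Benjamini-Hochberg adjustment and a threshold of 0.05. SE was taken as the size of the log2 fold change divided by root F. CPM uses TMM-scaled totals, and 3 counts are 0.259 to 0.306 CPM. The pipeline was tested on simulated data.

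The 9 genes and all lists were chosen with earlier results of these data known. Named were the 9 genes, Myc, pathway and regulator genes past the threshold, genes of fixed interest (Glud1, Arg1, Aldh4a1, Nags, Slc25a15, Slc7a7 and Slc1a5; others are not reported here) and the 2 most abundant markers per list. Genes named after their values were seen were Nos2, Vti1b, Alb, Itgam, Myh11, Fabp2, Sox9, Pycrl, Atf4, Asns, Hnf4a, Gfpt1, Ppat, Cad, S100a8 and S100a9. The fit was repeated with DESeq2, limma voom, upper-quartile or RLE scaling, no filter, a minimum count of 30, the replicate number as a block and each library left out.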

Additional observations from a re-analysis of the deposited data

How the results depend on the processing

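The fall of Arg2, Prodh and Oat passed under all 13 alternatives, so that 3 of the 9 genes were called lower in each. The other 6 kept their direction, and 5 of them their call; Pycr1 was not tested at a minimum count of 30. Same-numbered libraries did not deviate together (correlations of 0.0149, 0.0772 and 0.0132), so their numbers were not taken as pairs. With the replicate block 1 of the 9 genes was called higher, Cps1 (adjusted p = 0.0419), and over all genes 552 were called higher and 428 lower. It took the calls of Nags (0.0636), Got2 (0.0707), Ddah1 (0.0519), Vldlr (0.0560), Cebpa (0.0510), Gata6 (0.0712), Alb (0.0583) and Hpd (0.0755). Leaving out 1 library gave 0 of the 9 genes higher in each run, and moved the calls over all genes from 537 higher and 474 lower to between 229 and 503 higher and between 233 and 447 lower. The counts moved by over 1.5 times without control library 1 (343 higher, 303 lower), control library 2 (229 and 233) or Myc-deleted library 2 (337 and 302), and, for lower calls, without control library 3 (313). Upper-quartile scaling shifted all fold changes by a median of -0.04. Pycr1 and Ass1, with 10 to 41 counts per library, are the genes whose precision depth limits most.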

Other observations

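Gfpt1, Ppat and Cad draw on the amide nitrogen of glutamine for sugars and nucleotides, and none of the 3 passed the test. Gfpt1, which starts hexosamine synthesis, was at 516 to 614 CPM in the controls and 417 to 496 CPM in the Myc-deleted libraries (log2 fold change -0.28 ± 0.10, edgeR adjusted p = 0.119). Ppat, the first enzyme of purine synthesis, had 25 to 35 counts in the controls and 10 to 26 in the Myc-deleted libraries (-0.88 ± 0.37, edgeR adjusted p = 0.194). Cad, the first enzyme of pyrimidine synthesis, was at 7.85 to 10.5 CPM and 8.12 to 9.29 CPM (0.01 ± 0.16, edgeR adjusted p = 0.988).

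The genes most like Cps1 and Arg2 over the 6 libraries were taken from 11072 genes outside the lists whose log2 CPM averaged 1 or more. Likeness was the root mean square difference of log2 CPM, each gene centred on its mean. For Cps1 they were Nat8f4 (0.0468), Rnf25 (0.0495) and Cdc7 (0.0658). For Arg2, the member with the lowest p, they were Haus5 (0.129), Mpst (0.146) and Acer1 (0.154).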
